A study of Mus musculus with 6 samples.

Results

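The genes described here make, release, receive and restrain signals of the transforming growth factor β (TGF-β) and bone morphogenetic protein (BMP) families in mouse T cells cultured to become regulatory T cells (Tregs). They were chosen by symbol, as 33 named ligands, activation factors, receptors, Smads and feedback genes. All 33 symbols were found, each as 1 row, among the 39179 gene rows of every library. Of these, 31 had enough reads to be tested, and Tgfb2 and Smad6 did not.

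The study holds 6 polyA RNA-seq libraries, 3 from cultures with DEL-1-Fc and 3 from cultures with the control protein Fc. DEL-1 is a secreted integrin-binding protein, here fused to the Fc part of an antibody. Both groups began as naive CD4+ T cells from the spleens of wild type C57BL/6 mice that were 6 weeks old. Both spent 3 days on plates coated with anti-CD3 (2 µg/ml, reading a garbled unit in the labels as µg) with anti-CD28 at 1 µg/ml, IL-2 at 40 ng/ml and TGF-β1 at 5 ng/ml. Every library, control or treated, therefore comes from cells that had been given TGF-β1, and no culture without it was analysed here. The labels give no dose of DEL-1-Fc or Fc and do not say whether libraries came from separate animals or cultures, so the tests measure only the spread between these libraries.

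TGF-β is secreted in a latent form, held by its own propeptide after the protease furin has cut the precursor, and on Tregs the latent complex is displayed by the surface protein GARP until αv integrins release it. The free ligand joins type II and type I receptor kinases, which phosphorylate Smad2 and Smad3, whereas BMP receptors phosphorylate Smad1 and Smad5. Both kinds of Smad enter the nucleus with Smad4, and Smad3 acts at the Foxp3 gene when TGF-β turns naive T cells into Tregs. Smad7, Smad6, Smurf ligases, Ski, SnoN and TGIF proteins damp the signal.

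The libraries held 33364166 to 61967687 counts. DEL-1-Fc replicate 1 was the shallowest and stood apart from DEL-1-Fc replicates 2 and 3 on both leading principal components. On the first, with 44% of the variance, it lay at 47.7, replicates 2 and 3 at 14.3 and 12.8, and the Fc libraries at -27.5 to -22.7. On the second, with 23.3%, it lay at 27.9 and replicates 2 and 3 at -28.7 and -23.6. Results that change without it are given both ways. Foxp3, the transcription factor that defines Tregs, measured 316, 414 and 349 CPM (counts scaled to a common library size) in Fc, against 521, 584 and 465 in DEL-1-Fc. Its rise (log2 fold change 0.54, edgeR adjusted p = 0.0166) lost its call in 3 of 12 alternatives, with adjusted p up to 0.0928. Foxp3 shares 18.6% of its exon bases with Flicr on the same strand and 12.9% with Ccdc22 on the other. All 9 Treg markers and all 8 CD4 T cell markers reached 1 CPM or more. Of the Treg markers 4 rose (Foxp3, Nt5e, Gpr83 and Lrrc32), Ctla4 fell (log2 fold change -0.30, adjusted p = 0.031), and Il2ra, Ikzf2, Ikzf4 and Tnfrsf18 did not pass. Markers of natural killer cells summed to at most 0.109 CPM and B cell markers to 5.08 to 6.38 CPM in Fc and, in DEL-1-Fc, to 5.85 to 7.28 CPM. Myeloid cell markers, mostly Cd68, summed to 4.75 to 5.29 CPM in Fc and, in DEL-1-Fc, to 4.57 to 5.06 CPM. Cd68 did not pass (adjusted p = 0.572), nor did Itgam, which was 2.06-fold higher from a low level (adjusted p = 0.178). Of the myeloid and dendritic cell markers, S100a8 and Siglech had 0 counts, and Ncr1 did so among natural killer markers. CD8 T cell markers summed to 10.1 to 10.4 CPM in Fc and, in DEL-1-Fc, to 11.9 to 12.8 CPM: Cd8a rose 1.72-fold (adjusted p = 0.00607), and Cd8b1 did not pass (1.03-fold, adjusted p = 0.846). Dendritic cell markers, mostly Cd74, summed to 160 to 166 CPM in Fc and, in DEL-1-Fc, to 133 to 152 CPM, and endothelial markers, nearly all from Pecam1, to 58.5 to 69 CPM and to 74 to 85.6 CPM. Of these lists Zbtb46 fell (log2 fold change -0.42, adjusted p = 0.0192) and Pecam1 rose (0.36, adjusted p = 0.0237), while Cd74 did not pass (-0.21, adjusted p = 0.0801). The part of such cells in the results was not tested. In bulk libraries, fewer cells of a type and less RNA per cell cannot be told apart.

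The 33 genes spanned a wide range of levels. Counting reads per length (CPM per kilobase of merged exons), Tgfb1 was the highest in Fc, at 89.1, ahead of Furin at 41.5, Ski at 35.7 and Lrrc32 at 33.8. Among Smads, Smad4 was the most abundant at 16.2 per kilobase, and Smad2, Smad5, Smad7 and Smad3 lay close together at 6.37, 6.00, 5.89 and 5.25. Smad1 was lower at 1.74. The TGF-β receptors Tgfbr1 and Tgfbr2 stood at 12.9 and 9.73 per kilobase, whereas the BMP receptors Acvr1, Bmpr1a and Bmpr2 stood at 1.42, 1.23 and 0.454. These 3 BMP receptors were below Tgfbr1 and Tgfbr2 in both groups.

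**Figure D1:**
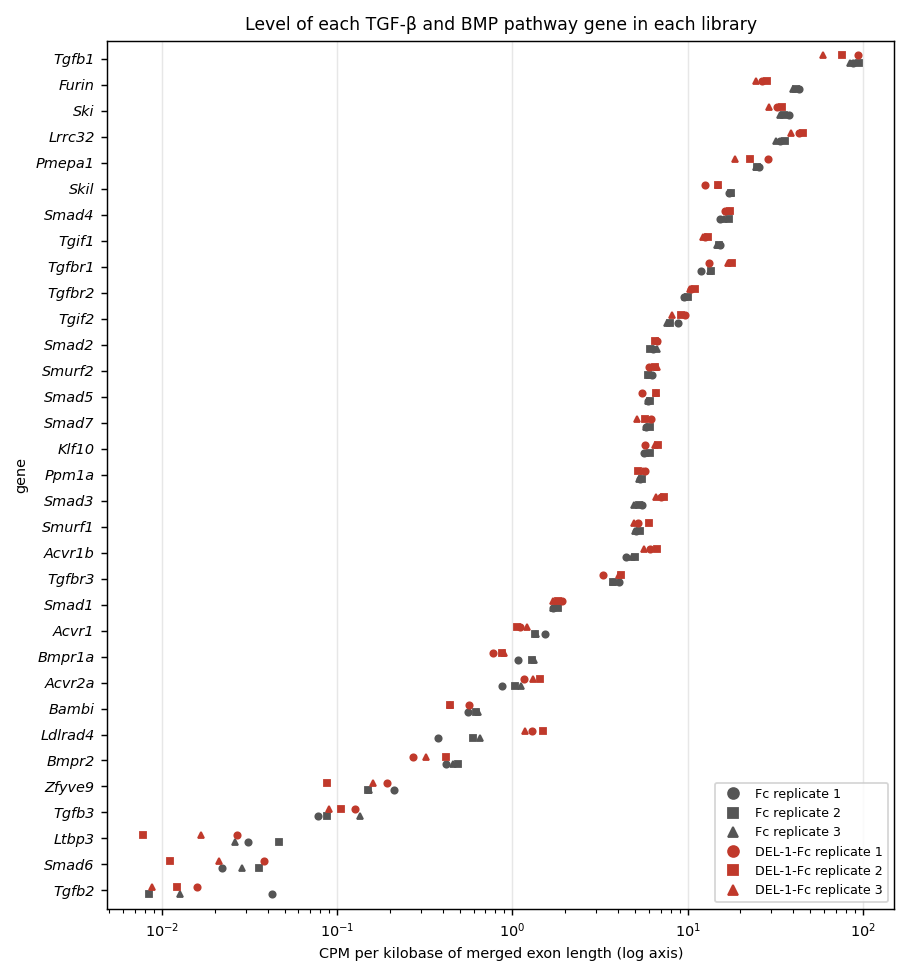
Level of each of the 33 genes in each library, as CPM per kilobase of merged exon length on a log axis, ordered by the Fc mean; grey symbols are Fc and red symbols DEL-1-Fc, with a symbol shape for each replicate. Tgfb1 lies at the top (89.1 in Fc) and Tgfb2 at the bottom, and for Furin and Ldlrad4 the red and grey symbols do not overlap.

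The comparison asks how DEL-1-Fc changed these genes against Fc. Of the 31 tested genes, 8 passed (edgeR adjusted p under 0.05), which is 25.8%, beside 12.6% of all 14928 genes tested. The 4 that rose were Smad3, Lrrc32 (encoding GARP), the activin receptor Acvr1b and the feedback inhibitor Ldlrad4, where 6.4% of all genes rose. The 4 that fell were Furin, the BMP receptor Bmpr1a, and the nuclear co-repressors Skil and Tgif1, where 6.22% of all genes fell. Among genes at 5 CPM or more in 3 libraries the same 8 passed of 27 tested (29.6%), beside 14.3% of all such genes (6.7% higher and 7.6% lower). The median log2 fold change (DEL-1-Fc over Fc) of the 31 was 0.06, beside 0.01 for all genes tested. The genes were listed with earlier results of these data known, so the counts only describe them.

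The number of calls moved with the libraries used. Without DEL-1-Fc replicate 1, 12 of the 31 passed (38.7%), beside 19.7% of all genes. Tgfbr1 and Acvr2a joined the genes that rose, then 6 beside 9.76% of all genes, and Pmepa1 and Bambi those that fell, 6 beside 9.98%. Without Fc replicate 1, 2 or 3 the calls numbered 4, 3 and 3, beside 5.95%, 6.4% and 6.32% of all genes. Without DEL-1-Fc replicate 2 they numbered 7 (11.4% of all genes), and without DEL-1-Fc replicate 3 they numbered 6 (8.56%). Smad3, Ldlrad4 and Furin passed in each of these 6 omissions and in every other setting tried.

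**Figure D2:**
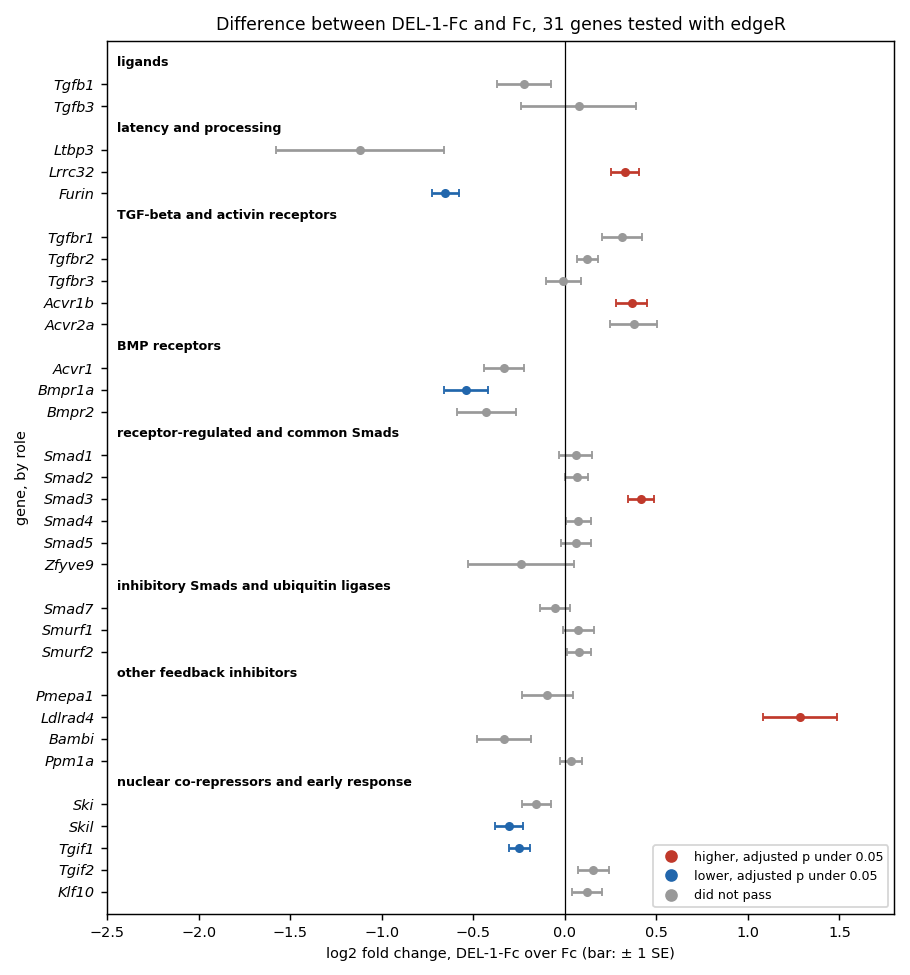
Log2 fold change (DEL-1-Fc over Fc) of the 31 tested genes, grouped by role, with a bar of 1 SE on each side; red marks genes that rose, blue genes that fell and grey genes that did not pass. Ldlrad4 has the largest rise (1.29) and Furin the largest fall among those that passed (-0.65).

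Among the ligands, Tgfb1 was the only abundant transcript. It measured 444, 477 and 427 CPM in Fc, against 471, 385 and 297 in DEL-1-Fc. The groups overlapped: DEL-1-Fc replicate 1 sat at the Fc level and replicates 2 and 3 lay below it. The log2 fold change of -0.23 (SE 0.148) did not pass (adjusted p = 0.371), with an approximate 95% interval, not adjusted for the number of genes, from -0.52 to 0.07. Such intervals, here and below, use the normal distribution and are too narrow for so few libraries. Without DEL-1-Fc replicate 1 the log2 fold change of Tgfb1 was -0.40 with adjusted p = 0.0618. Tgfb3, another isoform, had 15, 18 and 25 counts in Fc, against 14, 20 and 18 in DEL-1-Fc, which overlap (adjusted p = 0.907). Tgfb2 had 14, 3 and 4 counts in Fc, against 3, 4 and 3 in DEL-1-Fc. Most lie at or near 3 counts, the limit that a count of 0 allows, and Tgfb2 was not tested. Tgfb3 shared 7.6% of its exon bases with the transcript Gm48008 on the other strand.

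Furin, the protease that cuts the TGF-β precursor, was lower in DEL-1-Fc. It measured 397, 381 and 365 CPM in Fc, against 244, 259 and 224 in DEL-1-Fc. All 3 DEL-1-Fc libraries lay well below the Fc range. The level fell 1.57-fold, from 381.2 ± 15.6 to 242.3 ± 17.3 CPM (SD, n = 3 each), with a log2 fold change of -0.65 (SE 0.0724, adjusted p = 0.00065). Over the 12 alternatives the log2 fold change ranged from -0.70 to -0.60 and the adjusted p reached 0.00722 at most. Furin (ENSMUSG00000030530) spans chromosome 7 positions 80388585 to 80405436 (minus strand) in GRCm38. It shares 1.29% of its exon bases with the antisense gene Gm44851. If strand was not used in counting, reads of the pair cannot be told apart.

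RefSeq (GRCm38.p6) places 2 starts in Furin. The 250 bases before each are printed 5′ to 3′ because Furin had the fall with the smallest p. They are in lower case, with capitals marking any match to the motifs counted here. Those were CAGACA (core of the Smad3 and Smad4 box), GTCTAGAC (the Smad palindrome), GGCGCC (a GC-rich Smad element), CTGTCA (core of the site of TGIF proteins) and TGTGGT (Runx core), on both strands. CAGACA and GTCTAGAC share the letters AGAC, and no motif contains another.
Furin upstream start, chr7:80405437-80405686, minus strand: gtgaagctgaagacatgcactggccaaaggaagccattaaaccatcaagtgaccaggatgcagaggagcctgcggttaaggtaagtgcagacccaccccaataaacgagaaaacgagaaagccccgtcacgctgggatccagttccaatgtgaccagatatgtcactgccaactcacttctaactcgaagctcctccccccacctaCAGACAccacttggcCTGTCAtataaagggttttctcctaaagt
Furin downstream start, chr7:80402813-80403062, minus strand: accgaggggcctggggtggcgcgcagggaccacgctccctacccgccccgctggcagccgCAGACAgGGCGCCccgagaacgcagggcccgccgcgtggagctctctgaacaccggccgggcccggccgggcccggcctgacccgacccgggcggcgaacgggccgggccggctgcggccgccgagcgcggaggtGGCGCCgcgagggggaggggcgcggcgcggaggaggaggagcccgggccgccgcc
The upstream window held CAGACA and CTGTCA and was 50.4% G or C. The downstream window held CAGACA and GGCGCC (at 2 places) and was 83.2% G or C.

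Promoters of 22 of the 33 genes, 30 windows in all, were in the RefSeq table. Furin, Smad5, Tgfbr1 and Tgif1 had more than 1 window, and some of those of Smad5 overlap, so the windows are not independent. CAGACA occurred in 7 of the 30 windows (23.3%) and in 17.1% of 32817 windows of all genes. GGCGCC occurred in 7 (23.3%), beside 9.59% of all windows. CTGTCA was found in 2 (6.67%), beside 15.9% of all windows. TGTGGT and GTCTAGAC were in 0 of the 30, beside 14% and 0.168% of all windows. The member windows had a median G and C content of 67.6%, beside 52.4% for all windows. GGCGCC was present before Furin and Bmpr1a, which fell, and before Bmpr2, Ski, Smad5, Smurf2 and Tgfbr1, which did not pass. CAGACA was present before Furin and Tgif1, which fell, Smurf1 and Tgfbr1, which did not pass, and Tgfb2, which was not tested.

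Lrrc32 encodes GARP, which holds latent TGF-β on the Treg surface. It measured 157, 169 and 150 CPM in Fc, against 203, 213 and 182 in DEL-1-Fc. The groups did not overlap, and it rose 1.26-fold (log2 fold change 0.33, SE 0.0773, adjusted p = 0.025). Lrrc32 (ENSMUSG00000090958) spans chromosome 7 positions 98489283 to 98502181 (plus strand). Omitting Fc replicate 1, 2 or 3 ended the Lrrc32 call (adjusted p = 0.119, 0.05 and 0.121), as did omitting DEL-1-Fc replicate 2 (0.0563). Per kilobase, the ratio of Lrrc32 to Tgfb1 was 0.38, 0.381 and 0.378 in Fc, against 0.465, 0.594 and 0.658 in DEL-1-Fc. The ratio of Furin to Tgfb1 was 0.491, 0.439 and 0.47 in Fc, against 0.284, 0.369 and 0.415 in DEL-1-Fc. GARP transcripts were thus higher and furin transcripts lower per Tgfb1 transcript in every DEL-1-Fc library, although Tgfb1 itself spread widely among them. Ltbp3, which helps to store latent TGF-β in the matrix, had only 4 to 26 counts per library and did not pass (log2 fold change -1.12, SE 0.46, adjusted p = 0.157).

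In the TGF-β and activin branch, 4 of 5 receptors had log2 fold changes above 0 and 1 rose. In the BMP branch all 3 receptors lay below 0 and 1 fell. Of all 14928 genes, 7678 lay above 0, 6.4% rose and 6.22% fell, and no difference between the branches was tested. Acvr1b, the activin type I receptor, measured 19.8, 22.1 and 21.2 CPM in Fc, against 26.8, 29.7 and 24.8 in DEL-1-Fc. The groups did not overlap, and it rose 1.29-fold (log2 fold change 0.36, SE 0.086, adjusted p = 0.0254). The Acvr1b call ended when Fc replicate 1, 2 or 3 was omitted (adjusted p = 0.124, 0.0648 and 0.095), and also when DEL-1-Fc replicate 2 was (0.0575). Acvr1b (ENSMUSG00000000532) spans chromosome 15 positions 101174067 to 101213684 (plus strand). Bmpr1a, a BMP type I receptor, measured 6.84, 8.24 and 8.38 CPM in Fc, against 4.91, 5.50 and 5.68 in DEL-1-Fc. It fell 1.46-fold without overlap (adjusted p = 0.0201; log2 fold change -0.54, SE 0.121), and omitting Fc replicate 2 or 3 ended that call (adjusted p = 0.0949 and 0.0983). Bmpr1a (ENSMUSG00000021796) spans chromosome 14 positions 34410734 to 34503341 (minus strand) and shares 4.57% of its exon bases with the antisense gene Gm17110.

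The remaining receptors did not pass in all 6 libraries. Tgfbr1, the TGF-β type I receptor, measured 77.9, 88.5 and 87.3 CPM in Fc, against 86.9, 117 and 111 in DEL-1-Fc. Only DEL-1-Fc replicate 1 overlapped with Fc (log2 fold change 0.31, SE 0.109, adjusted p = 0.101). Without that library Tgfbr1 rose (0.43, SE 0.0608, adjusted p = 0.000916), and it also passed with the replicate block (0.30, adjusted p = 0.0426). Acvr2a, an activin type II receptor, measured 4.99, 5.87 and 6.34 CPM in Fc, against 6.61, 8.19 and 7.47 in DEL-1-Fc. These do not overlap (log2 fold change 0.37, SE 0.13, adjusted p = 0.0991), and with DEL-1-Fc replicate 1 omitted Acvr2a rose (0.45, adjusted p = 0.0248). Acvr2a shares 7.84% of its exon bases with Orc4 on the other strand, which had a log2 fold change of -0.11. Tgfbr2, the TGF-β type II receptor, measured 77.6, 81.9 and 79.3 CPM in Fc, against 85.1, 90.5 and 84.5 in DEL-1-Fc. These do not overlap, but the difference is small (log2 fold change 0.12, adjusted p = 0.223, approximate 95% interval from 0.01 to 0.24). The unadjusted edgeR p was 0.0682, so a 95% interval from the test itself would include 0. Tgfbr3, the co-receptor betaglycan, had a log2 fold change of -0.01 (adjusted p = 0.969, interval from -0.20 to 0.18).

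Acvr1, a type I receptor for BMPs, measured 7.44, 6.50 and 6.61 CPM in Fc, against 5.33, 5.10 and 5.87 in DEL-1-Fc. These do not overlap (log2 fold change -0.33, SE 0.112, adjusted p = 0.0902). Bmpr2, the BMP type II receptor, measured 7.47, 8.75 and 8.27 CPM in Fc, against 4.84, 7.52 and 5.77 in DEL-1-Fc. DEL-1-Fc replicate 2 reached the Fc range (-0.43, SE 0.16, adjusted p = 0.12), and without it Bmpr2 was lower (-0.62, adjusted p = 0.0247). Summed per kilobase, the transcripts of Acvr1, Bmpr1a and Bmpr2 were 0.113, 0.106 and 0.109 of those of Tgfbr1, Tgfbr2, Acvr1b and Acvr2a in Fc. In DEL-1-Fc the ratio was 0.0694, 0.063 and 0.0712, below every Fc library. These sums leave out Acvrl1, which went from a mean of 0.526 per kilobase in Fc to 1.04 in DEL-1-Fc. The ratios given here were formed after values were seen and were not tested.

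**Figure D3:**
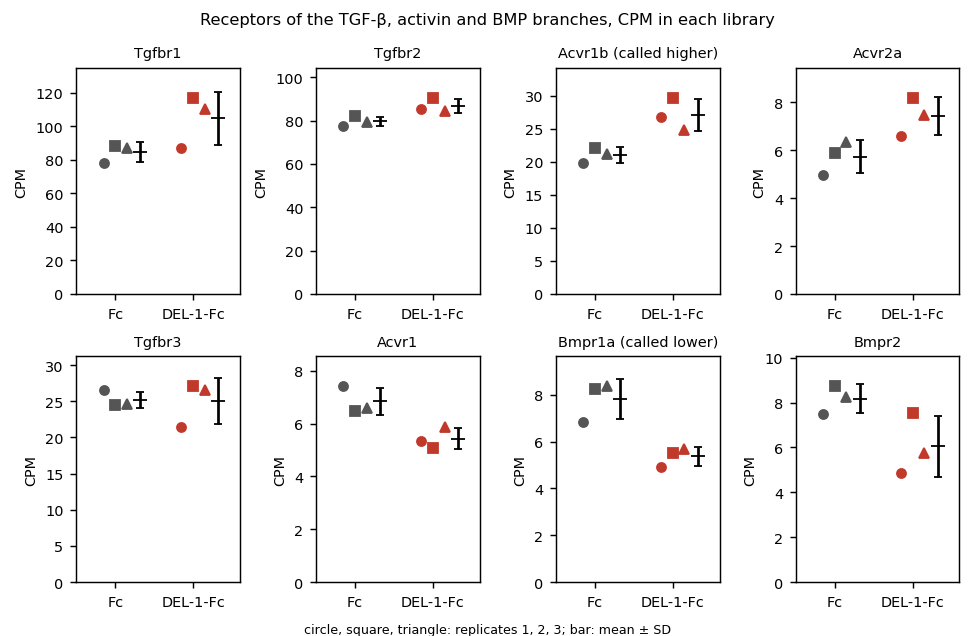
CPM of 8 receptor genes in each library, with Fc in grey, DEL-1-Fc in red, replicates 1, 2 and 3 as circle, square and triangle, and a black bar for the mean with its SD. Tgfbr1, Tgfbr2, Acvr1b and Acvr2a have higher means and Acvr1, Bmpr1a and Bmpr2 lower means in DEL-1-Fc, and only Acvr1b and Bmpr1a passed the test.

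Smad3 was the only receptor-regulated Smad that passed. It measured 30.5, 29.3 and 27.5 CPM in Fc, against 39.0, 40.7 and 36.6 in DEL-1-Fc. The lowest DEL-1-Fc library lay above the highest Fc library. Smad3 rose 1.33-fold, from 29.1 ± 1.53 to 38.8 ± 2.07 CPM (SD, n = 3 each; log2 fold change 0.41, SE 0.0719, adjusted p = 0.00637). Over the 12 alternatives the log2 fold change ranged from 0.37 to 0.45 and the adjusted p from 3.43e-05 to 0.0458. Smad3 (ENSMUSG00000032402) spans chromosome 9 positions 63646767 to 63757994 (minus strand) and shares no exon base with another annotated gene. The 250 bases before its RefSeq start hold none of the 5 motifs, are 69.2% G or C, and are shown for comparison with those of Furin because Smad3 kept its call in every setting.
Smad3, chr9:63757995-63758244, minus strand: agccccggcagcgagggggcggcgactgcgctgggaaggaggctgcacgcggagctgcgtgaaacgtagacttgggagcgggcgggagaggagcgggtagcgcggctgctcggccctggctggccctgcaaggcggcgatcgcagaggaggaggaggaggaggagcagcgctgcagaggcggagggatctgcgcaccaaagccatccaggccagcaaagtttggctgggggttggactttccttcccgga

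Smad2, the other Smad phosphorylated by TGF-β receptors, measured 55.3, 53.6 and 58.8 CPM in Fc, against 58.8, 57.5 and 58.9 in DEL-1-Fc. The groups overlapped (log2 fold change 0.06, SE 0.061, adjusted p = 0.547), and the approximate 95% interval ran from -0.06 to 0.18. Per kilobase, Smad3 was 0.873, 0.866 and 0.741 of Smad2 in Fc, against 1.05, 1.12 and 0.983 in DEL-1-Fc, so every DEL-1-Fc ratio exceeded every Fc ratio. Because Smad2 changed little, this ratio mostly repeats the rise of Smad3, as does the share given next. Both were formed after values were seen and were not tested. Smad3 made up 12% to 13.6% of the summed transcripts of Smad1 to Smad5 and Smad7 in Fc, and 15% to 16.1% in DEL-1-Fc. Smad4, the shared partner, stayed at 37.3% to 40.3% in all 6 libraries and had a log2 fold change of 0.07 (adjusted p = 0.53, interval from -0.06 to 0.21). Smad1 and Smad5, which carry BMP signals, had log2 fold changes of 0.06 and 0.06 (adjusted p = 0.721 and 0.688), with intervals from -0.12 to 0.24 and from -0.10 to 0.22. Zfyve9, the SARA scaffold that presents Smads to the receptor, was near 1 CPM and did not pass (adjusted p = 0.637). It shares 10.9% of its exon bases with a gene on the other strand.

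Inhibitory Smads and the Smurf ubiquitin ligases showed no call. Smad7, the inhibitor induced by TGF-β, measured 26.1, 27.7 and 26.0 CPM in Fc, against 28.0, 25.7 and 23.1 in DEL-1-Fc. The groups overlapped on both sides (log2 fold change -0.06, SE 0.0831, adjusted p = 0.711, interval from -0.22 to 0.11). Per kilobase the ratio of Smad3 to Smad7 was 0.952, 0.863 and 0.861 in Fc, against 1.14, 1.29 and 1.29 in DEL-1-Fc. This untested ratio likewise mostly repeats the rise of Smad3. Smurf1 and Smurf2, which tag receptors and Smads for degradation, had log2 fold changes of 0.07 and 0.08 (adjusted p = 0.62 and 0.488). Smad6, the inhibitor of the BMP branch, had 4, 7 and 5 counts in Fc, against 4, 2 and 4 in DEL-1-Fc and was below the level needed for a test.

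Of the other feedback inhibitors, Ldlrad4, a membrane protein that withholds Smads from the receptor, had the largest rise of the 31 genes. It measured 2.03, 3.20 and 3.5 CPM in Fc, against 6.98, 7.98 and 6.31 in DEL-1-Fc. The groups were far apart, and it rose 2.44-fold (log2 fold change 1.29, SE 0.201, adjusted p = 0.00376). Ldlrad4 (ENSMUSG00000024544) spans chromosome 18 positions 67933257 to 68268630 (plus strand). It shares 52.1% of its exon bases with Fam210a on the other strand, so its reads are uncertain. Of the 31-base stretches in its longest transcript, 89.5% also occur, on either strand, in longest transcripts of other genes, most often Fam210a. Fam210a itself measured 51.0, 47.6 and 48.3 CPM in Fc, against 47.1, 49.8 and 55.0 in DEL-1-Fc, which overlap (log2 fold change 0.05, adjusted p = 0.707).

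Pmepa1, a relative of Ldlrad4 and a common TGF-β target, measured 125, 122 and 121 CPM in Fc, against 142, 112 and 91.1 in DEL-1-Fc. The Fc libraries were tightly grouped while DEL-1-Fc libraries fell on both sides of them (log2 fold change -0.10, SE 0.141, adjusted p = 0.705). Without DEL-1-Fc replicate 1 Pmepa1 was lower (-0.28, adjusted p = 0.0429), but the sign turned once DEL-1-Fc replicate 3 was omitted (0.05, adjusted p = 0.811). Among the DEL-1-Fc libraries, Pmepa1 and Tgfb1 were both highest in replicate 1 and lowest in replicate 3. Junb, Myc and Rhoa had the same order, so it was not particular to this pair, and no link between them was tested. Bambi, a decoy receptor, was near 3 CPM (-0.33, adjusted p = 0.19) and fell once DEL-1-Fc replicate 1 was omitted (-0.45, adjusted p = 0.04). Ppm1a, a phosphatase that removes the activating phosphates of Smads, had a log2 fold change of 0.03 (adjusted p = 0.772, interval from -0.09 to 0.15).

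Of the nuclear co-repressors, Skil and Tgif1 fell modestly. Skil, which encodes SnoN, measured 167, 170 and 171 CPM in Fc, against 121, 145 and 144 in DEL-1-Fc. With no overlap between groups, Skil dropped to a level 1.24-fold lower (adjusted p = 0.0324; log2 fold change -0.31, SE 0.0769). For Skil the call ended when Fc replicate 1, 2 or 3 was omitted (adjusted p = 0.115, 0.121 and 0.123), when DEL-1-Fc replicate 3 was (0.0524), with library sizes alone as scaling (0.0736). Tgif1, a homeodomain repressor that binds Smads, measured 85.7, 85.2 and 82.4 CPM in Fc, against 71.0, 73.3 and 68.8 in DEL-1-Fc. It fell 1.19-fold without overlap (-0.25, SE 0.0575, adjusted p = 0.0231), and the call ended when Fc replicate 1, 2 or 3 was omitted (0.116, 0.117 and 0.084) and when DEL-1-Fc replicate 3 was (0.0773). Skil (ENSMUSG00000027660) spans chromosome 3 positions 31095058 to 31122577 (plus strand), and Tgif1 (ENSMUSG00000047407) spans chromosome 17 positions 70844205 to 70853546 (minus strand).

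Their relatives did not pass. Ski measured 210, 198 and 188 CPM in Fc, against 180, 193 and 162 in DEL-1-Fc, where DEL-1-Fc replicate 2 lay within the Fc range (log2 fold change -0.16, adjusted p = 0.242). Tgif2 had a log2 fold change of 0.15 (adjusted p = 0.288), opposite in sign to Tgif1. It shares 56.7% of its exon bases with a transcript on the other strand that stayed under 1 CPM. Klf10, an early TGF-β response repressor, had a log2 fold change of 0.12 (adjusted p = 0.38, interval from -0.04 to 0.28).

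**Figure D4:**
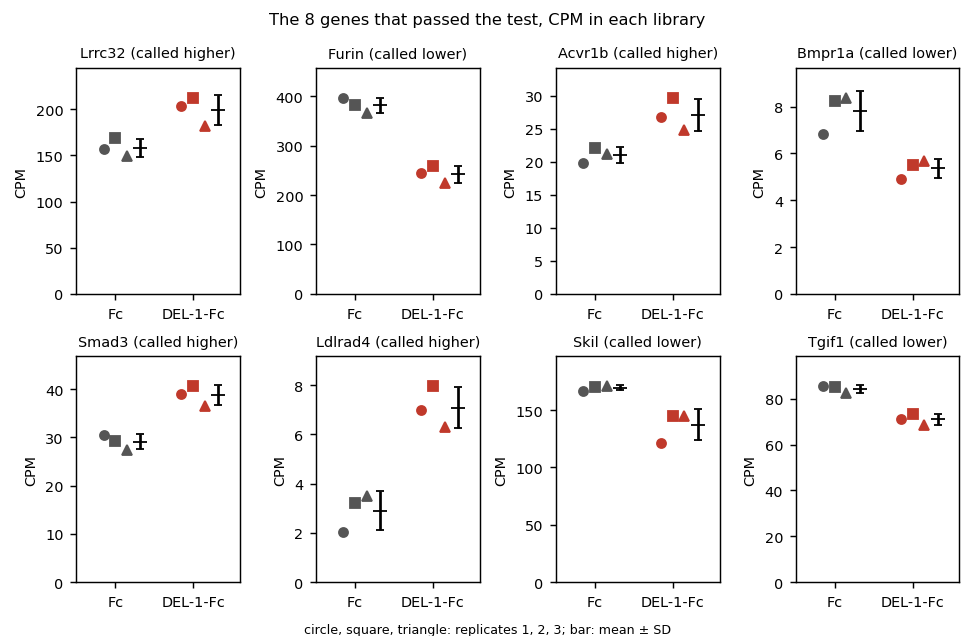
CPM in each library of the 8 genes that passed the test, with Fc in grey, DEL-1-Fc in red, replicates 1, 2 and 3 as circle, square and triangle, and a black bar for the mean with its SD; each axis starts at 0. In all 8 panels the red and grey symbols are separated, most widely for Ldlrad4 and Furin.

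Across the 31 tested genes, all 3 DEL-1-Fc libraries lay above all 3 Fc libraries for 6 genes and below them for 5. These 11 genes are set beside 34.8% of all genes tested that had no overlap, 17.3% above and 17.5% below.

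Other genes of the pathway were taken from 8 lists, which together name 170 symbols. Of these, 117 were tested, and 13 rose and 20 fell (28.2% called, beside 12.6% of all genes, 6.4% higher and 6.22% lower). Among other ligands, 1 rose and 1 fell of 7 tested (28.6% called, beside 12.6% of all genes). Gdf11, an activin-type ligand, measured 13.8, 12.3 and 11.5 CPM in Fc, against 6.86, 7.87 and 8.06 in DEL-1-Fc, and fell 1.65-fold (adjusted p = 0.0031; log2 fold change -0.72, SE 0.109). Bmp7, near 1 CPM, rose (0.74, adjusted p = 0.0285), and its call ended on omitting Fc replicate 1, 2 or 3 (0.114, 0.0952 and 0.11), with DEL-1-Fc replicate 2 or 3 omitted (0.0828 and 0.0543) and with the replicate block (0.0525).

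Co-receptors and further receptors had 3 rises and 0 falls of 7 tested (42.9% called, beside 12.6% of all genes), and 4 did not pass. Nrp1, neuropilin-1, a surface protein of Tregs that can bind TGF-β, measured 58.5, 64.6 and 64.1 CPM in Fc, against 84.1, 91.4 and 87.2 in DEL-1-Fc, a rise of 1.40-fold (0.49, SE 0.066, adjusted p = 0.00174). Acvrl1, the type I receptor ALK1, rose 1.96-fold (0.97, SE 0.205, adjusted p = 0.0155) from 1.57, 2.77 and 2.39 to 4.88, 4.41 and 3.96 CPM, a call that ended on omitting Fc replicate 3 (adjusted p = 0.0529). Acvrl1 thus moved opposite to the BMP receptor Bmpr1a. Rgmb, a BMP co-receptor, rose from 1.12 to 1.96 CPM (0.81, adjusted p = 0.0305). That call ended with Fc replicate 1 (0.125) or 2 (0.128) left out, with DEL-1-Fc replicate 2 (0.0818) or 3 (0.0751) left out and with the replicate block (0.069).

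Of 11 tested genes that store or release latent TGF-β, 1 rose and 4 fell (45.5% called, beside 12.6% of all genes). Itgb8, the integrin chain that frees TGF-β from GARP, measured 6.94, 8.88 and 8.78 CPM in Fc, against 2.41, 3.34 and 4.10 in DEL-1-Fc. It fell 2.48-fold without overlap (-1.31, SE 0.192, adjusted p = 0.00273). Itgb3 and Itgav, which form an integrin that DEL-1 binds, fell as well (-0.40 and -0.28, adjusted p = 0.0128 and 0.0326). The Itgb3 call was lost without Fc replicate 2 (0.0697) or 3 (0.0718), and that of Itgav without Fc replicate 1, 2 or 3 (0.11, 0.125 and 0.135), without DEL-1-Fc replicate 3 (0.0651) and with library sizes alone (0.0755). Thbs1, thrombospondin-1, which can activate latent TGF-β, rose 2.98-fold from a low level (0.652, 0.865 and 1.00 to 1.40, 3.45 and 2.58 CPM; 1.58, adjusted p = 0.0128), a call lost without Fc replicate 1 (0.0686) or 2 (0.0572). Itgb1, the other fall of this list, was also lower (-0.23, adjusted p = 0.0353), and its call was not followed over the alternatives. Lrrc32 and Thbs1 thus rose beside falls of Furin, Itgb8, Itgav, Itgb3 and Itgb1. Of these, the calls of Lrrc32, Thbs1, Itgav and Itgb3 were lost in some alternatives.

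Among 29 other intracellular regulators, 2 rose, 2 fell and 25 did not pass. That is 13.8% called, near the 12.6% of all genes. Dab2, an adaptor that links TGF-β receptors to Smads, measured 0.194, 0.245 and 0.255 CPM in Fc, against 2.10, 2.42 and 1.48 in DEL-1-Fc. This rise of 8.57-fold (3.10, SE 0.255, adjusted p = 0.000161) was larger than that of any of the 31 genes. It started from 11, 15 and 14 counts in Fc, a mean of 0.231 CPM. That lies below the Fc mean of each of the 31, the lowest being Ltbp3 at 0.314 CPM. Usp9x, a deubiquitinase of Smad4, fell 1.42-fold (-0.51, adjusted p = 0.000669), and Ppp1r15a, whose product GADD34 is recruited to the TGF-β receptor by Smad7, fell 1.33-fold (-0.42, adjusted p = 0.00433). Ctdsp2, a Smad phosphatase, rose (0.32, adjusted p = 0.0473) but lost its call in 8 of 12 alternatives, with adjusted p up to 0.196. Of 22 Smad partners and co-regulators 4.55% were called, beside 12.6% of all genes: 0 rose and 1 fell (Runx3, a transcription factor that binds Smads, -0.89, adjusted p = 0.000207). Of 16 genes of the non-Smad branch and 2 extracellular antagonists 0 were called.

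The list of TGF-β and BMP target genes had the most calls, with 6 rises and 12 falls among 23 tested (78.3%, beside 12.6% of all genes) and a median log2 fold change of -0.32. Many of its genes also answer to T cell receptor and other signals, and several were known from earlier results of these data when the list was made. Bhlhe40, a transcriptional repressor (-0.96), Cdkn1a, the cell cycle inhibitor p21 (-1.09), the chemokine receptor Ccr8 (-0.77) and the protease inhibitor Serpine2 (-1.47) fell, with adjusted p from 7.26e-05 to 0.000133. The BMP-responsive genes Id1, Id2 and Id3 rose (0.88, 0.32 and 0.68, adjusted p = 0.0292, 0.0222 and 0.0272), while Bmpr1a fell. The Id genes are named here after their values were seen. The Id2 call ended when Fc replicate 1, 2 or 3 was omitted (0.0951, 0.107 and 0.0881) and when DEL-1-Fc replicate 3 was (0.0734). Id1 lost its call without Fc replicate 1 (0.132) or 2 (0.112) and with the replicate block (0.0771), and Id3 without Fc replicate 2 (0.105) or 3 (0.0981).

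**Figure D5:**
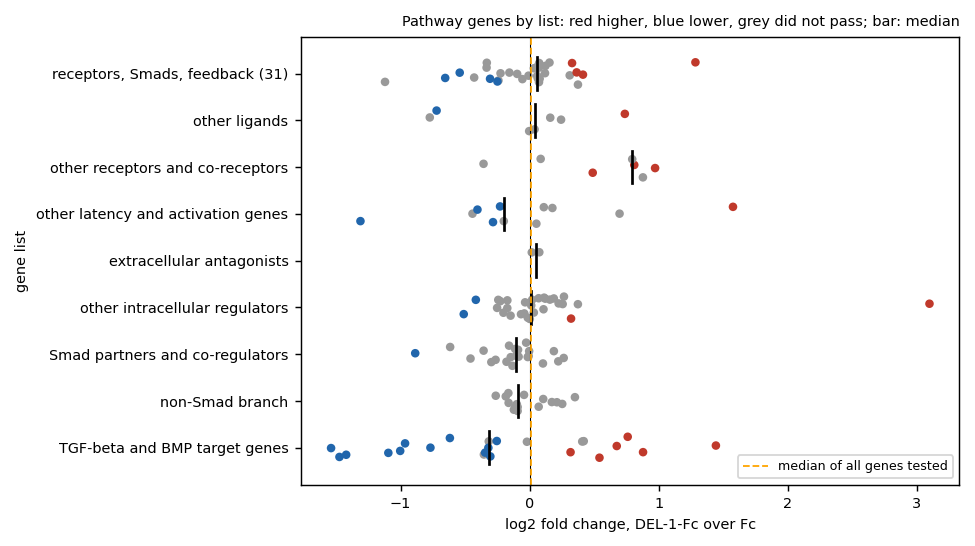
Log2 fold change (DEL-1-Fc over Fc) of each tested gene in the 31-gene set and in 8 further pathway lists; red rose, blue fell, grey did not pass, black bars are list medians and the dashed line is the median of all genes tested. Calls are absent from the non-Smad branch and the extracellular antagonists, sparse among Smad partners and frequent among target genes. The far right point is Dab2 (3.10).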

How the data were processed

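PolyA libraries were made by BGI protocols from Trizol-extracted RNA cleared of DNA, per the labels' protocols. The deposited values are unnormalised gene counts, with a separate table for each library. STAR, whose version is not stated, and HTSeq 0.6.0 are named per the submitters' processing notes, with GRCm38 (mm10). Whether counting used strand, which annotation release it used and how multi-mapping reads were treated is not given in the sources used here. Symbols, coordinates and merged exon lengths came from GENCODE M21 (GRCm38), which matched 37607 of 39179 rows.

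Counts were tested with edgeR 4.0.16 (R 4.3.3). Its filterByExpr kept 14928 genes, at a minimum count of 10 and a minimum total of 15. After TMM scaling, the robust quasi-likelihood test compared both groups, and a gene was called at a Benjamini-Hochberg adjusted p under 0.05 across those 14928. CPM uses TMM-scaled library sizes, and CPM per kilobase divides it by merged exon length. The SE is the absolute log2 fold change over the square root of the F statistic, and the approximate 95% interval is normal. That interval ignores the few degrees of freedom of the test and is therefore too narrow. The common biological coefficient of variation was 14.4%. A count of 0 allows up to 3 counts, 0.049 to 0.0914 CPM, for counting error only. Between replicates the chi-square divided by its degrees of freedom was 18.3 or more, so no library is a copy of another. The fitting script was tested on simulated data. All 33 genes were named, with up to 4 called genes of smallest p from each of 8 further lists. Foxp3, Id1, Id2, Id3 and Itgb1 were named besides. Of 170 symbols in those lists, 168 were matched. The genes and lists were chosen with earlier results of these data known. Alternatives were DESeq2 1.42.0, RLE factors, library sizes alone, no filter, a filter of 5 CPM in 3 libraries, the replicate block and each library left out.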

Additional observations from a re-analysis of the deposited data

How the results depend on the processing

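Of the 8 genes called among the 31, Smad3, Furin and Ldlrad4 passed in all 12 alternatives. Among 368 values of the 31 genes under alternatives, 333 kept direction and side of the threshold, 19 lost a call, 6 gained a call and 10 changed sign. The 6 genes with a sign change were not called with all libraries. With each library left out in turn, their log2 fold changes ranged from -0.070 to 0.344 for Tgfb3, -0.070 to 0.091 for Tgfbr3, -0.459 to 0.038 for Zfyve9, -0.123 to 0.014 for Smad7, -0.0145 to 0.131 for Smurf1 and -0.276 to 0.047 for Pmepa1. With library sizes alone Tgfbr3 turned to 0.022. The cause was not tested. Leaving out each library in turn gave 2 to 6 of the 31 genes higher and 1 to 6 lower. Across all genes it gave 428 to 1485 higher and 466 to 1518 lower, against 956 and 928 with all libraries. With the replicate block, 733 genes were higher and 777 lower, and 5 and 4 of the 31. The replicate numbers were not shown to pair the samples: same-numbered libraries correlated at 0.0163, 0.0885 and 0.0425 in their deviations from the group means. Libraries with unlike numbers correlated at -0.0913 to 0.0382. DEL-1-Fc replicates 2 and 3 correlated best with the same-numbered Fc library, and DEL-1-Fc replicate 1 with Fc replicate 3 (0.0382). With DESeq2, RLE factors, no filter or the 5 CPM filter the same 8 genes passed, and with library sizes alone 7. Depth limits Tgfb2, Tgfb3, Ltbp3 and Smad6, which had at most 26 counts in any library.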
